A study of Mus musculus with 18 samples.

Results

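Back skin of mice labelled C-IKKa was compared with back skin of wild-type (WT) mice, using only libraries with low levels of hair shaft keratins, the structural proteins of a growing hair. The comparison held 9 of the 18 libraries of the series, each from its own mouse: 5 of C-IKKa (C13, C15, C16, C17 and C18, by the mouse numbers in the labels) and 4 of WT (WT2, WT3, WT5 and WT6). All mice were of the FVB strain and 6 months old. C-IKKa mice carried exogenous IKKα in the cytoplasm of keratinocytes, the cells of the epidermis and hair follicle, and WT mice carried no transgene per the labels. The promoter that drove the transgene and the number of founder lines are not given in the sources used here. RNA came from whole back skin, so every value is a mixture of cell types, and fewer cells of a type and less RNA per cell cannot be told apart.

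IKKα, encoded by Chuk, is a kinase that is best known as a part of the IKK complex. That complex marks the inhibitory IkB proteins for destruction and so frees NF-kB transcription factors, and IKKα also phosphorylates p100, the product of Nfkb2, which the proteasome then trims in the alternative NF-kB pathway, in which RelB is the partner. NF-kB induces genes of its own feedback, such as Nfkbia and Tnfaip3, along with adhesion molecules, chemokines and antigen processing genes. In skin, IKKα also has a role in keratinocyte differentiation that does not need its kinase activity, and it can act from the nucleus.

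The libraries were chosen by a measured value, the mean of log2(normalized count + 1) over 6 hair keratins (Krt25, Krt27, Krt28, Krt71, Krt73 and Krt35), with a limit of 8. These keratin values are given as a description and support nothing here. The mean ran from 3.13 to 5.9 in the 4 WT libraries. It was 4.5 in C13, 4.64 in C15, 6.65 in C16 and 3.47 in C17, and 9.03 in C18. C18 therefore lay above the limit although the choice of libraries names it, and the named libraries were followed. The nearest libraries above it were C14 at 12.35 and WT1 at 12.89, and neither was compared. No hair cycle stage is stated in the labels, so low keratin RNA is the only basis for calling the skin resting. C18 was also the only C-IKKa library read as female, with the Y-linked gene Ddx3y listed at 0. The other 4 C-IKKa libraries and 2 of the 4 WT libraries (WT3 and WT6) were read as male. Xist, a gene expressed in females, was listed at 0 in all 9 libraries, so the female readings rest on low Ddx3y alone.

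**Figure D1:**
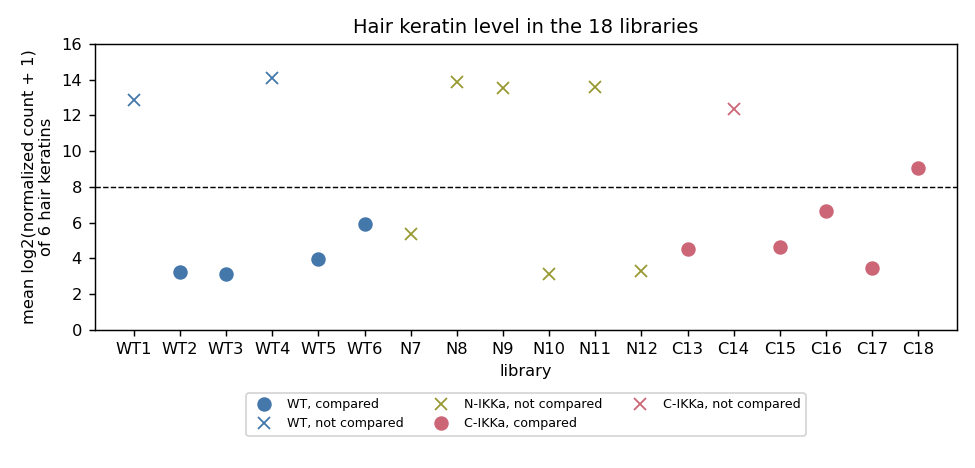
Mean log2(normalized count + 1) of the 6 hair keratins (y axis) in each of the 18 libraries (x axis). Filled points are the 9 compared libraries, crosses the other 9, and the dashed line is the limit of 8. C18 sits at 9.03, above the line, and the other 8 compared libraries lie between 3.13 and 6.65.

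Depth ran from 11.1 to 12.6 M counted reads (megareads) per WT library and from 12.6 to 14.7 M per C-IKKa library. Skin markers were abundant, as Krt14, a keratin of basal keratinocytes, ranged from 9988 to 11940 normalized counts in WT and from 10610 to 15170 in C-IKKa. The fibroblast gene Dcn ranged from 15190 to 27330 in WT and from 18200 to 25300 in C-IKKa. A few genes that skin cells use were listed at 0 in all 9 libraries, among them the class I light chain gene B2m and the interferon gamma chemokines Cxcl10 and Cxcl11, and no statement is made about them.

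Whether C-IKKa skin carried more Chuk RNA was read first. Chuk stood at 901, 851, 958 and 1019 normalized counts in WT2, WT3, WT5 and WT6, and at 853, 895, 934, 882 and 889 in C13, C15, C16, C17 and C18. The groups overlapped, with means of 932 ± 72.7 (SD, n = 4) and 890 ± 29.1 (SD, n = 5). The log2 fold change was −0.06 (SE 0.07, limma adjusted p = 0.808). The table holds 1 value for the gene, so transgene and endogenous RNA cannot be told apart, and a transgene that lacks the counted sequence would not be seen.

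Of 55357 genes listed, 17241 had at least 10 normalized counts in at least 4 of the 9 libraries and were tested. In C-IKKa, 138 genes were higher (0.800% of those tested) and 8 were lower (0.0464%) at a limma adjusted p below 0.05, the threshold for a call throughout. Of the 138, 97 were at least 2-fold higher, and for 136 every C-IKKa library lay above every WT library. Over all tested genes that held for 2.58%, and the reverse order held for 1.42%. The calls rest on the same values, so this separation is no further evidence. At an unadjusted limma p below 0.05, 1109 genes (6.43%) were higher and 982 (5.70%) lower. The filter could be passed through C-IKKa alone, and 25 of the 138 reached 10 normalized counts in 0 WT libraries. Ccl1, Gabrg3, Cdkn2a, Cyp2j13, Olfm4 and Gsdma2 were among these 25. In all 4 WT libraries 102 of the 138 reached that level. The median log2 fold change of all tested genes was 0.004, and 50.9% of them were positive. Without C18, 76 genes were called higher, 73 of them among the 138, and 1 lower. As the groups differed in sex, a fit with sex as a covariate was run, and it called 146 genes higher, 114 of them among the 138, and 7 lower, 3 of them among the 8. Of the named higher genes, Traf3, Tlr2, Pglyrp3, Tap1, Tapbp, Dgat2l6, Gsdma2 and Gsdma3 were not called in that fit. The 4 male C-IKKa libraries against the 2 male WT libraries alone gave 42 higher, 35 of them among the 138, and 1 lower. With the hair keratin mean as a covariate 44 of the 138 were called.

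**Figure D2:**
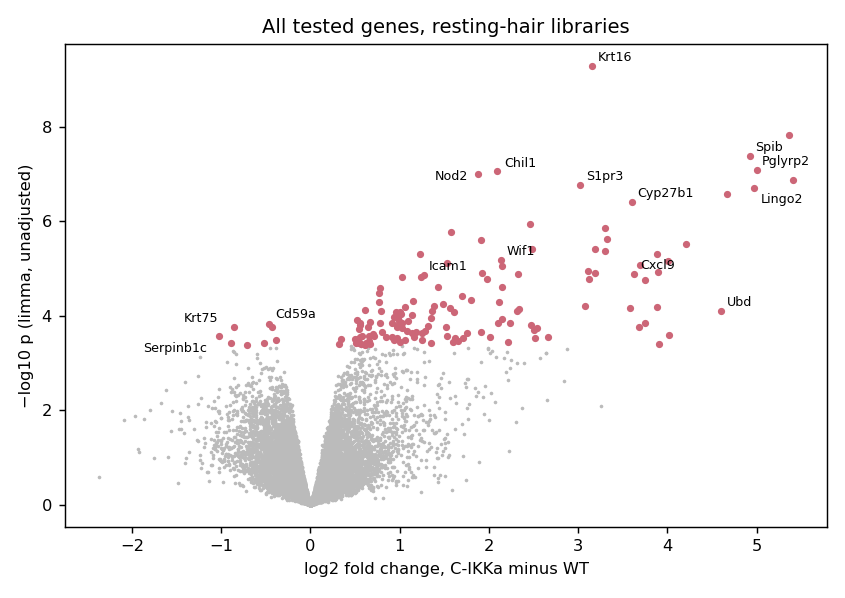
Log2 fold change of C-IKKa against WT (x axis) and −log10 of the unadjusted limma p (y axis) for the 17241 tested genes. Red points are the 138 genes called higher and the 8 called lower, and the higher genes reach past a log2 fold change of 5 while no lower gene passes −1.02.

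The 5 C-IKKa libraries did not stand equally high. C15 was the lowest of the 5 for 117 of the 138 genes (84.8%), against 26.7% of all tested genes. C18 was the lowest for 13, C13 for 4, C16 for 2 and C17 for 2. C16 was the highest for 42 and C17 for 46. Without C15, limma called 348 genes higher and 97 lower, 137 of the former and all 8 of the latter being calls made with it. Leaving out any of C13, C16 and C17 left 38, 41 and 41 higher and 0 lower. In all, 37 of the 138 higher genes and 0 of the 8 lower genes were called whichever 1 of the 9 libraries was left out, among them Pglyrp2, Spib, Cxcl9, Krt16, Nod2, Icam1, Irf1 and Nfkbie.

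Promoters were read because the genes called higher included several known NF-kB targets. RefSeq gave a promoter on the earlier build GRCm38.p6 for 106 of the 138 genes, from 250 bases before to 50 bases after the start. The NF-kB consensus, searched on both strands, was found in 27 of these 106 (25.5%), against 12.4% of 12214 tested genes with a promoter. Over all 27025 genes with a promoter the share was 9.55%. A gene counted where any of its promoters held a match, and of the 32851 single promoters 8.46% did. The interferon-stimulated response element, searched on both strands as TTTC and TTTC spaced by 2 bases, was found in 2.83% of the 106 and 3.75% of the tested genes. A match is a run of letters and not a shown binding site. The 200 bases before the start, on the gene's strand, are printed for 5 genes picked by hand from those called higher. Matches to the NF-kB consensus are in capitals. The 5 genes were Spib (chr7:44532072-44532271, minus strand), Ubd (chr17:37193692-37193891, plus), Tnfaip3 (chr10:19015411-19015610, minus), Nfkbia (chr12:55492648-55492847, minus) and Pglyrp2 (chr17:32420976-32421175, minus).
Spib: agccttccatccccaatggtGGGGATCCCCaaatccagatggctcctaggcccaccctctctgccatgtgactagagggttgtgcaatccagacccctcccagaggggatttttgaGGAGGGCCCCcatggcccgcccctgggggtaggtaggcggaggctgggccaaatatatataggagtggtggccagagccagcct
Ubd: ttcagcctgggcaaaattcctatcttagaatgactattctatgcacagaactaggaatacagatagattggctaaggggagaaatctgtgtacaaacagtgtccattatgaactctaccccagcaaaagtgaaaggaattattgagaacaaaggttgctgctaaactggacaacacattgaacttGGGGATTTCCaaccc
Tnfaip3: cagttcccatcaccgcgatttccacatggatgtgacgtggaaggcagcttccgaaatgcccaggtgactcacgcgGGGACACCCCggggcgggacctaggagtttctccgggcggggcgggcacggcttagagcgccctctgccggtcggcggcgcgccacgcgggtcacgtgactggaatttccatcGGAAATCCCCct
Nfkbia: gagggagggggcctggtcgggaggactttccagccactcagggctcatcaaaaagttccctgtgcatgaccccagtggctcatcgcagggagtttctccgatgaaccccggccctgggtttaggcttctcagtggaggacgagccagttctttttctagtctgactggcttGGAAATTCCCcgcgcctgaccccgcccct
Pglyrp2: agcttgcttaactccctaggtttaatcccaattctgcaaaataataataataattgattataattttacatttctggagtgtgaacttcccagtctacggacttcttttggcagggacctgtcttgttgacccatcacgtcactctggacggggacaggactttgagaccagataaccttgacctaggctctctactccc

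In Spib the matches began 180 and 84 bases before the start, in Tnfaip3 125 and 12, in Ubd 15 and in Nfkbia 29. For Tnfaip3 a promoter was printed only if it held a match, so its matches follow from that choice and show nothing further. Pglyrp2, the gene with the largest fold change by the naming rule, held 0 matches in these letters.

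Pglyrp2, Spib and Cxcl9, already known from earlier results of these data to mark C-IKKa skin, were each far higher in every C-IKKa library than in any WT library. Values from here on are normalized counts in the order WT2, WT3, WT5 and WT6, then C13, C15, C16, C17 and C18. Pglyrp2 (ENSMUSG00000079563.11), an amidase that cuts bacterial peptidoglycan, stood at 16.1, 16.7, 17.5 and 7.22 in WT and at 668, 148, 763, 758 and 394 in C-IKKa. C15 held less than any other C-IKKa library and still several times the highest WT value. The log2 fold change was 5.0 (SE 0.45, limma adjusted p = 0.000291), and 5.06 without C18. Its exons overlapped an antisense transcript over 14.4% of their length in the earlier annotation, and the neighbouring model A530088E08Rik, which overlaps it, was also called.

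Spib (ENSMUSG00000008193.14), an Ets-family factor of B cells, plasmacytoid dendritic cells and microfold cells, stood at 10.1, 8.34, 7.01 and 4.81 in WT and at 310, 96.4, 474, 393 and 181 in C-IKKa. Its log2 fold change was 4.92 (SE 0.41, limma adjusted p = 0.000243), and 5.04 without C18. Spib was the only called gene of 10 tested genes that RANK signalling drives in epithelium, a list with a median log2 fold change of 0.19. The share called higher over all tested genes was 0.800%. The receptor gene Tnfrsf11a itself gave −0.04 (limma adjusted p = 0.897). Among 6 tested B and plasma cell markers limma and edgeR called 0 and DESeq2 1, with 2 at an unadjusted p below 0.05. The B cell gene Ms4a1 was listed at 0 throughout, as was B2m, so its 0 is not read as a lack of B cells. The plasma cell genes Igha and Jchain had log2 fold changes of 2.22 (limma adjusted p = 0.127) and 2.02 (0.175), and without C15 both were called.

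Cxcl9, a chemokine that interferon gamma induces and that attracts T cells, stood at 45.4, 19.1, 15.2 and 89 in WT and at 429, 145, 585, 557 and 656 in C-IKKa. The groups did not overlap, and the log2 fold change was 3.63 (SE 0.52, limma adjusted p = 0.00691), or 3.47 without C18. With edgeR on recovered reads the adjusted p was 0.0546. Ubd, a ubiquitin-like protein induced by interferon gamma and TNF, stood at 0, 1.19, 8.18 and 22.9 in WT and at 184, 38.5, 154, 168 and 97.9 in C-IKKa. Its log2 fold change of 4.6 (SE 0.80, limma adjusted p = 0.0228) ran from 3.86 to 5.39 as single libraries were left out. The Ubd call was lost without WT3, C13, C16 or C17, and with edgeR (adjusted p = 0.0709).

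**Figure D3:**
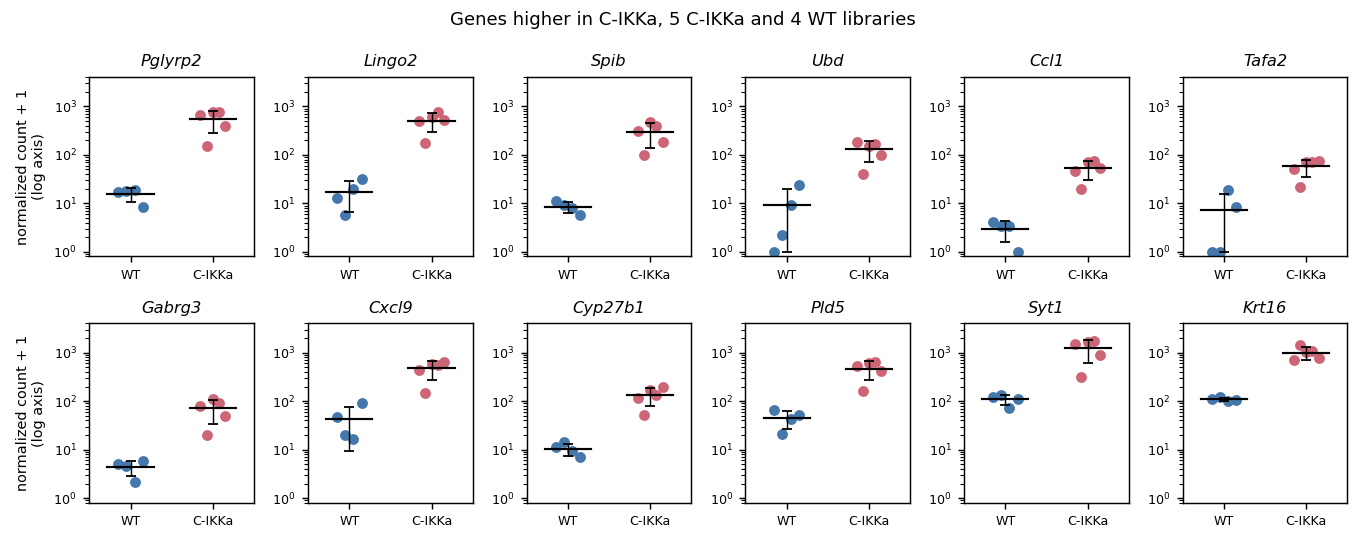
Normalized count + 1 on a log axis for the 12 named genes with the largest rise, one panel a gene, in the 4 WT (blue) and 5 C-IKKa (red) libraries. Bars are means and whiskers 1 SD, with the lower whisker stopped at the axis value of a count of 0. No C-IKKa point lies at or below a WT point in any panel, as the naming rule required. C15 is the lowest C-IKKa point in every panel except that of Krt16.

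Of 14 tested feedback inhibitors of NF-kB, 4 were called higher and 0 lower, 13 were positive, and the median log2 fold change was 0.56. Of all tested genes 0.800% were called higher. This and the other lists were drawn up with earlier results of these data known, so their counts are not independent evidence. Nfkbia, the IkBα protein that holds NF-kB in the cytoplasm, stood at 965, 1340, 662 and 1060 in WT and at 2023, 1411, 2580, 2682 and 1927 in C-IKKa. C15 was close to WT3, and the other C-IKKa libraries were well above both. Its log2 fold change was 1.08 (SE 0.21, limma adjusted p = 0.0366). Tnfaip3, the A20 enzyme that ends NF-kB signalling, stood at 490, 610, 410 and 452 in WT and at 1444, 666, 1601, 1736 and 1257 in C-IKKa. Its log2 fold change was 1.39 (SE 0.23, limma adjusted p = 0.0212).

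The other called feedback genes were Nfkbie, the inhibitor IkBε, with a log2 fold change of 1.24 (limma adjusted p = 0.00723), and Tnip1, a partner of A20, with 0.78 (0.0107). Without C18 the list held 3 calls, Nfkbia being lost (limma adjusted p = 0.0663), and its median was 0.62. Tnfaip3 was also not called without WT5, WT6, C13, C16 or C17, Tnip1 without C13, and Nfkbia without any 1 of 7 libraries, with adjusted p-values of at most 0.128. Over all 9 leave-outs the log2 fold changes ran from 1.28 to 1.62 for Tnfaip3, from 0.72 to 0.87 for Tnip1 and from 0.90 to 1.24 for Nfkbia. With edgeR, Nfkbia was not called (adjusted p = 0.0885).

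Of 22 tested kinases, adaptors and subunits of the pathway, 2 were called higher and 0 lower, with a median of 0.17. The share called higher over all tested genes was 0.800%. Relb, the subunit of the alternative pathway, stood at 522, 531, 460 and 618 in WT and at 1284, 689, 1340, 1420 and 871 in C-IKKa. Every C-IKKa value was above every WT value, and the log2 fold change was 1.02 (SE 0.20, limma adjusted p = 0.0338). Traf3, an adaptor that restrains the alternative pathway, had 0.51 (SE 0.10, limma adjusted p = 0.0475). Nfkb2 had 0.86 but was not called (limma adjusted p = 0.119). Relb and Traf3 each lost the call in 7 of the 9 leave-outs, with adjusted p-values up to 0.122 and 0.164, and over all 9 their log2 fold changes ran from 0.93 to 1.19 and from 0.45 to 0.56.

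Among 18 tested NF-kB target genes 3 were called higher and 0 lower, with a median of 0.50. The share called higher over all tested genes was 0.800%. Icam1, the adhesion molecule that leukocyte integrins bind, stood at 448, 425, 441 and 452 in WT and at 1199, 636, 1362, 1297 and 1020 in C-IKKa. The WT values lay close together and the C-IKKa values all above them, and the log2 fold change was 1.27 (SE 0.18, limma adjusted p = 0.007). Exons of an antisense gene covered 11.7% of Icam1. Vcam1, another adhesion molecule, had 1.57 (limma adjusted p = 0.0214), a call that was lost without WT3, WT5, C13, C16 or C17 (adjusted p up to 0.088), with log2 fold changes of 1.44 to 1.82 over all 9 leave-outs. Irf1, a transcription factor downstream of both NF-kB and interferon gamma, had 1.03 (limma adjusted p = 0.00723). Tnf itself stood at 72.6, 45.3, 45.6 and 61.4 in WT and at 85.5, 62.4, 114, 163 and 79.8 in C-IKKa, with overlapping groups and no call (log2 fold change 0.78, limma adjusted p = 0.265). None of 20 tested TNF ligands and receptors was called by limma, 1 was by edgeR and 4 by DESeq2, and 4 had an unadjusted p below 0.05.

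Genes that sense or cut peptidoglycan, a component of the bacterial cell wall, gave 4 calls among 10 tested, all higher, with a median of 0.52. Of all tested genes 0.800% were called higher. Pglyrp2 was already known to mark C-IKKa skin, and the list was drawn up with earlier results known, so its count is not independent evidence. Besides Pglyrp2 these were Nod2, Tlr2 and Pglyrp3. Nod2, the cytoplasmic sensor of muramyl dipeptide, stood at 263, 235, 210 and 288 in WT and at 1033, 598, 1094, 1091 and 859 in C-IKKa. Even C15 was above the highest WT value, and the log2 fold change was 1.88 (SE 0.17, limma adjusted p = 0.000291). Pglyrp3, a secreted peptidoglycan recognition protein, stood at 121, 120, 108 and 120 in WT and at 313, 147, 376, 422 and 237 in C-IKKa (log2 fold change 1.25, SE 0.25, limma adjusted p = 0.0439). Tlr2, the surface receptor for bacterial lipoproteins, had 0.92 (SE 0.18, limma adjusted p = 0.0419). Pglyrp3 and Tlr2 lost their calls in 8 of the 9 leave-outs, with adjusted p-values up to 0.154 and 0.146, and kept them only without C15. The list held 2 calls without C18. Ripk2, the kinase that carries the Nod2 signal, had 0.43 and missed the threshold (limma adjusted p = 0.0924).

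The interferon gamma list was positive in 18 of 18 tested genes, with a median of 0.44, but only Cxcl9, Ubd and Irf1 were called. Over all tested genes 50.9% were positive and 0.800% were called higher. Type I interferon-stimulated genes gave 0 calls by limma among 24 tested, with a median of 0.26 and 20 positive, while edgeR called 0 and DESeq2 2, and 8 had an unadjusted p below 0.05. Class I antigen presentation gave 5 calls among 15 tested, all higher, with 14 positive and a median of 0.62. Here too, 0.800% of all tested genes were called higher and 50.9% were positive. The called genes cut, transport or load peptides. Psmb9, an immunoproteasome subunit, stood at 238, 268, 204 and 285 in WT and at 425, 326, 477, 510 and 406 in C-IKKa (log2 fold change 0.78, limma adjusted p = 0.0307). Its neighbours Tap1 and Tap2, the peptide transporter, had 0.58 and 0.71 (both limma adjusted p = 0.0412). Exons on the opposite strand covered 5.79% of Psmb9, 18.5% of Tap2 and 24.9% of Tapbp, and the strand setting of the counting is not given in the sources used here.

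Psme2, an activator of the proteasome, had a log2 fold change of 0.98 (limma adjusted p = 0.0282). Tapbp, which loads peptide onto class I molecules, had 0.62 (limma adjusted p = 0.0475). The class I heavy chain H2-K1 had 0.49 and missed the threshold (limma adjusted p = 0.0573). Each of the 5 calls was lost when 1 of 6 to 8 of the libraries was left out, with adjusted p-values up to 0.154, and the list held 3 calls without C18 and 0 with the hair keratin mean as a covariate, its median then being 0.65. Class II antigen presentation gave 0 calls by limma, edgeR and DESeq2 among 10 tested, with 3 at an unadjusted p below 0.05, all 10 positive and a median of 0.26.

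Markers of immune cell types are given as summed levels. The 24 listed T cell and cytotoxic markers summed to 1480 to 1970 normalized counts in WT and 1530 to 2000 in C-IKKa. Of the 19 tested, 0 were called by limma and by edgeR and 1 by DESeq2, with 2 at an unadjusted limma p below 0.05. The killer T cell gene Cd8a stood at 5.04, 13.1, 1.17 and 10.8 in WT and at 40.2, 15.6, 22.4, 32.4 and 23.8 in C-IKKa. Its groups did not overlap, and it missed the threshold (log2 fold change 1.96, SE 0.53, limma adjusted p = 0.143). The 17 macrophage and monocyte markers summed to 13200 to 17100 in WT and 11200 to 22100 in C-IKKa, with C18 highest. The 16 Langerhans and dendritic cell markers summed to 4660 to 4940 and 4510 to 6230. Foxp3 and Xcl1 of the T cell list, Ly6g of the neutrophil list and Ms4a1, Igkc, Iglc1 and Mzb1 of the B cell list were listed at 0 in all 9 libraries. As with B2m, no statement is made about these genes. The part of immune cell number in the genes above was not tested.

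Genes best known from neurons and synapses gave 5 calls among 21 tested, all higher, while the median of the list was 0.02. Of all tested genes 0.800% were called higher. Gabrg3 reached 10 normalized counts in 0 WT libraries and Tafa2 in 1, so both passed the filter through C-IKKa. Their place in this count was not independent of their higher level there. The list was drawn up with earlier results of these data known, so its count is not independent evidence. Lingo2, a leucine-rich repeat membrane protein, stood at 12.1, 4.76, 18.7 and 30.1 in WT and at 507, 174, 589, 749 and 518 in C-IKKa. The lowest C-IKKa library was well above the highest WT library, and the log2 fold change was 4.97 (SE 0.48, limma adjusted p = 0.000384). Syt1, the calcium sensor of synaptic vesicles, stood at 119, 132, 71.3 and 112 in WT and at 1533, 320, 1696, 1733 and 890 in C-IKKa (log2 fold change 3.30, SE 0.42, limma adjusted p = 0.00376). Pld5, a phospholipase D family member, stood at 63.5, 20.2, 42.1 and 51.7 in WT and at 519, 160, 618, 628 and 409 in C-IKKa (log2 fold change 3.33, SE 0.40, limma adjusted p = 0.00265). For each of these 3, C15 was the lowest C-IKKa library.

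Gabrg3, a subunit of the GABA-A receptor, stood at 4.03, 3.57, 1.17 and 4.81 in WT and at 80.3, 19.3, 111, 91.5 and 47.5 in C-IKKa (log2 fold change 3.88, SE 0.51, limma adjusted p = 0.0039). Tafa2, a small secreted protein, was listed at 0, 0, 17.5 and 7.22 in WT and stood at 49.4, 21.1, 68.9, 71.2 and 72.2 in C-IKKa. Its call was the weakest of the 5 (log2 fold change 3.91, SE 0.81, limma adjusted p = 0.0483) and was lost in 7 of the 9 leave-outs, among them C18 (3.79, adjusted p = 0.119), and with edgeR. The log2 fold change of such low genes depends on the pseudocount, and that of Tafa2 was 4.43 with a pseudocount of 0.5 and 2.65 with 5. Markers of nerve and Schwann cells, which the same skin could hold, gave 0 calls by limma and edgeR and 1 lower by DESeq2 among 11 tested, with 3 at an unadjusted p below 0.05. All 12 listed markers of these cells summed to 8590 to 10800 normalized counts in WT and to 7120 to 9620 in C-IKKa.

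Some called genes outside the lists were chosen after their values were seen. S1pr3, a receptor for sphingosine 1-phosphate, stood at 149, 167, 86.5 and 183 in WT and at 1482, 591, 1617, 1431 and 1011 in C-IKKa. Its groups were far apart, and the log2 fold change was 3.03 (SE 0.29, limma adjusted p = 0.000374). Alox12e, an epidermal lipoxygenase, stood at 1575, 1534, 1169 and 1773 in WT and at 4456, 2610, 5351, 6095 and 3961 in C-IKKa (log2 fold change 1.53, SE 0.21, limma adjusted p = 0.00531). Chil1, a secreted chitinase-like protein, stood at 162, 122, 201 and 150 in WT and at 752, 462, 759, 862 and 588 in C-IKKa (log2 fold change 2.09, SE 0.19, limma adjusted p = 0.000291). These 3 genes were called in all 9 leave-outs.

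The potassium channel Kcnq3 had a log2 fold change of 2.34 (limma adjusted p = 0.022) and the heat and capsaicin channel Trpv1 one of 1.31 (0.0326). These calls were lost in 5 and 8 of the 9 leave-outs, with adjusted p-values up to 0.0848 and 0.121, and Kcnq3 was not called with edgeR (adjusted p = 0.0539). Trpv1 stood at 192 and 424 in the high-keratin libraries WT1 and WT4 and at 184 in C14. Cxcl16, a chemokine and scavenger receptor, had 1.0 (limma adjusted p = 0.0228), but its exons overlap those of Zmynd15, also called, over 18.3% of their length. Gsdma3 and Gsdma2, neighbouring gasdermin paralogs whose reads could be split between copies, had 1.62 (limma adjusted p = 0.0419) and 2.02 (0.0412). Cxcl16, Gsdma3 and Gsdma2 lost their calls in 6, 7 and 8 of the leave-outs, with adjusted p-values up to 0.0876, 0.145 and 0.15, and Gsdma3 was not called with edgeR (adjusted p = 0.116).

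Olfm4, a secreted glycoprotein of crypts and neutrophils also chosen after its values were seen, was listed at 0 in WT2, WT3 and WT6 and at 1.17 in WT5, and stood at 28.8, 7.34, 19.7, 28.7 and 11.4 in C-IKKa (limma adjusted p = 0.00691). Its log2 fold change of 3.89 was 4.69 with a pseudocount of 0.5 and 2.09 with 5. Olfm4 reached the filter level in 4 C-IKKa and 0 WT libraries, so only 5 of the 9 leave-outs could test it. It was called in those 5. The numbered gene model Gm6999, which overlaps it, was called too. Ccl1, a chemokine that CCR8 on T cells binds, stood at 3.02, 2.38, 2.34 and 0 in WT and at 45.3, 18.4, 68.9, 74.9 and 52.3 in C-IKKa. No WT library held more than 3 reads of it, so its log2 fold change of 4.21 (SE 0.52, limma adjusted p = 0.00304) depends on the pseudocount and was 4.6 with 0.5 and 2.94 with 5. Cdkn2a, which encodes the cell cycle inhibitors p16 and p19Arf, stood at 1.01, 7.15, 2.34 and 6.01 in WT and at 27.8, 21.1, 33.1, 20.3 and 18.1 in C-IKKa. The groups did not overlap (log2 fold change 2.47, SE 0.46, limma adjusted p = 0.0326), and the call was lost in 6 of the 9 leave-outs, among them C18 (2.56), with adjusted p-values up to 0.128. Cdkn2a was the only call among 16 tested cell cycle inhibitors and senescence genes, whose median was 0.05, against 0.800% of all tested genes called higher. It passed the filter through C-IKKa alone, so its place in that count was not independent of its higher level there. The 30 cell cycle genes gave 0 calls by limma, edgeR and DESeq2, with 7 at an unadjusted p below 0.05. Their median was 0.29 with 29 positive, and 0.17 with 25 positive without C18.

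Krt16, a keratin of stressed, wounded and fast-growing epidermis and of the companion layer of the follicle, had the smallest adjusted p of the named genes. It stood at 109, 119, 102 and 102 in WT and at 702, 1445, 1016, 1098 and 764 in C-IKKa. The WT values lay within a narrow band, and here C15 was the highest C-IKKa library. The log2 fold change was 3.16 (SE 0.18, limma adjusted p = 8.95e-06), and 3.25 without C18. In the high-keratin libraries the order was not the same, with 1351 in WT1, 333 in WT4 and 642 in C14. Krt6b, another keratin of stressed epidermis, did not pass the filter and stood at 16.1, 0, 2.34 and 1.2 in WT and at 16.5, 667, 8.06, 2.77 and 3.8 in C-IKKa. C15 alone was high, and the exact permutation test gave p = 0.175 (adjusted over 3 genes 0.262, smallest possible 0.00794).

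Of 9 tested basal and suprabasal keratins, 1 was called, where 0.800% of all tested genes were called higher. Krt2, a keratin of the upper spinous layer, stood at 14.1, 23.8, 17.5 and 22.9 in WT and at 162, 46.8, 140, 111 and 46.6 in C-IKKa (log2 fold change 2.15, SE 0.39, limma adjusted p = 0.0293). C15 and C18 were the lowest C-IKKa libraries, and both were above WT. The 20 tested cornified envelope and late differentiation genes gave 0 calls by limma, edgeR and DESeq2, with 2 at an unadjusted p below 0.05 and a median of −0.03. Ehf, an Ets-family factor of epithelia, was the only call among 17 epidermal transcription factors (log2 fold change 0.99, SE 0.18, limma adjusted p = 0.0307), and it was lower in C14, at 357, than in WT1 and WT4, at 803 and 1267. The Krt2 and Ehf calls were lost in 7 and 6 of the leave-outs, with adjusted p-values up to 0.114 and 0.115, and over all 9 their log2 fold changes ran from 1.94 to 2.38 and from 0.90 to 1.10.

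Among 14 tested cytochrome P450 genes 3 were called higher, with a list median of 0.18, where 0.800% of all tested genes were called higher. Cyp27b1, the enzyme that makes the active form of vitamin D, stood at 10.1, 13.1, 8.18 and 6.01 in WT and at 113, 51.4, 168, 132 and 197 in C-IKKa. The groups were far apart, with a log2 fold change of 3.6 (SE 0.37, limma adjusted p = 0.000628) that was 3.43 without C18. Cyp24a1, which breaks active vitamin D down, was listed at 0 in all 9 libraries, and no statement is made about it. Cyp2j13, of the arachidonic acid epoxygenase family, had 3.13 (SE 0.46, limma adjusted p = 0.00774) and passed the filter through C-IKKa alone. Cyp1b1 had 0.65 (limma adjusted p = 0.0412), a call that was lost in 8 of the leave-outs with adjusted p-values up to 0.146.

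Wnt pathway genes gave 2 calls among 23 tested, both higher, and a median of −0.03. Beside this and the next list counts, 0.800% of all tested genes were called higher. Wif1, a secreted Wnt inhibitor, stood at 212, 96.5, 125 and 122 in WT and at 595, 290, 764, 740 and 720 in C-IKKa (log2 fold change 2.14, SE 0.29, limma adjusted p = 0.00499). Wnt10b, a ligand of hair follicles, stood at 256, 169, 265 and 253 in WT and at 549, 332, 433, 436 and 501 in C-IKKa (log2 fold change 0.93, SE 0.17, limma adjusted p = 0.0272). Both were separated from WT in every library, and Wnt10b lost its call in 6 of the leave-outs, among them C18 (0.89), with adjusted p-values up to 0.0905. Of 20 sebaceous gland genes 2 were called, the neighbouring wax and lipid acyltransferase genes Awat2 and Dgat2l6, with 0.67 each (limma adjusted p = 0.0307 and 0.0481). Without C18 neither was called, and they lost their calls in 7 and 8 of the leave-outs, with adjusted p-values up to 0.115 and 0.154. Junb, a subunit of AP-1, was the only call among 16 immediate early genes (0.65, limma adjusted p = 0.0327), was lost in 6 of the leave-outs with adjusted p-values up to 0.121, and stood at 1877 and 2297 in WT1 and WT4 against 1475 in C14.

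The 8 genes called lower had adjusted p-values of 0.0311 to 0.0493, just under the threshold. Serpinb1c, a protease inhibitor, stood at 221, 154, 162 and 114 in WT and at 88.6, 74.4, 64.5, 68.4 and 96 in C-IKKa, and fell by 1.02 on the log2 scale (SE 0.20, limma adjusted p = 0.0412). Krt75, a keratin of the companion layer, stood at 1906, 1438, 1226 and 1569 in WT and at 614, 1013, 772, 826 and 1045 in C-IKKa, and fell by 0.85 (SE 0.16, limma adjusted p = 0.0327). Its highest C-IKKa library was below its lowest WT library. Ppp1r3c, which targets a phosphatase to glycogen, stood at 2514, 4050, 4486 and 2683 in WT and at 1837, 1850, 2158, 1303 and 1957 in C-IKKa, and fell by 0.89 (SE 0.18, limma adjusted p = 0.0475). Kcnj16, an inward rectifier potassium channel, fell by 0.71 (limma adjusted p = 0.0493).

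Cd59a, an inhibitor of the complement membrane attack complex, stood at 541, 555, 611 and 581 in WT and at 437, 401, 385, 453 and 408 in C-IKKa, and fell by 0.46 (SE 0.09, limma adjusted p = 0.0311). Prdx3, a mitochondrial peroxiredoxin, fell by 0.52 (0.0475), Klhdc1, a kelch-repeat protein, by 0.43 (0.0327) and Elmod1, a GTPase activator, by 0.39 (0.0439). All 8 lower genes had groups that did not overlap, which held in that direction for 1.42% of all tested genes. The calls rest on the same values, so this separation is no further evidence. Each lost its call in 6 to 8 of the 9 leave-outs, with adjusted p-values up to 0.163, and Krt75 alone was called without C18. With sex as a covariate Klhdc1 (adjusted p = 0.0533), Elmod1 (0.0561), Prdx3 (0.065), Ppp1r3c (0.0553) and Kcnj16 (0.0577) were not called by limma, and with edgeR Ppp1r3c was not (adjusted p = 0.0835). Over all 9 leave-outs the log2 fold changes kept their sign and ran from −1.18 to −0.86 for Serpinb1c, −0.96 to −0.74 for Krt75, −0.49 to −0.42 for Cd59a and −1.02 to −0.74 for Ppp1r3c.

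**Figure D4:**
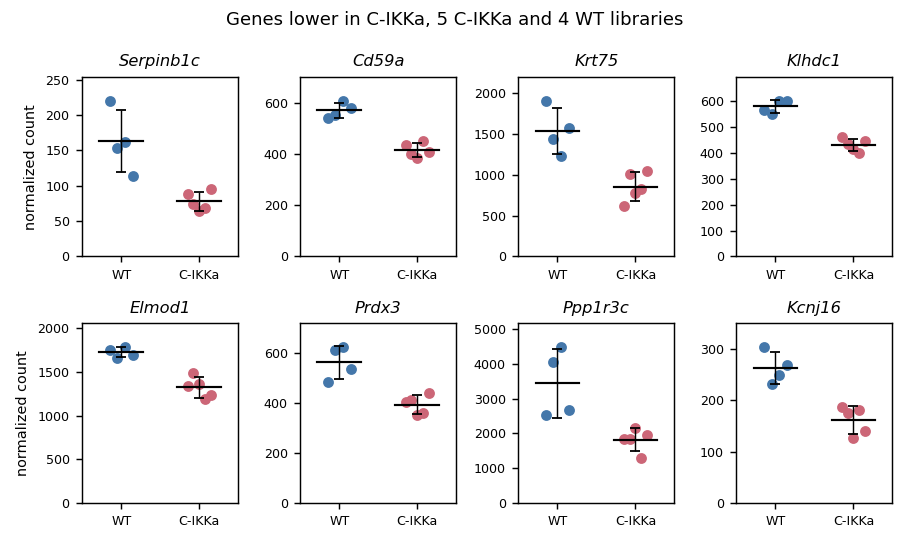
Normalized counts, on axes that start at 0, of the 8 genes called lower, one panel a gene, in the 4 WT (blue) and 5 C-IKKa (red) libraries. Bars are means and whiskers 1 SD. In each panel all C-IKKa points lie below all WT points, and most gaps between the groups are small beside the level itself.

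Several tissue lists leaned lower without a call. All 19 tested skeletal muscle genes were negative, with a median of −0.62 and 15 at an unadjusted p below 0.05, and limma and edgeR called 0 of them and DESeq2 1. All 20 listed muscle genes summed to 207000 to 350000 normalized counts in WT and 115000 to 258000 in C-IKKa. Acta1, the muscle actin, stood at 59540, 77240, 59710 and 42200 in WT and at 45710, 59590, 27080, 28550 and 36820 in C-IKKa, so that C15 had the most muscle actin RNA of its group. Without C15, 5 muscle genes were called lower and the median was −0.78. All 10 mitochondrially encoded genes were negative as well, with a median of −0.34, 0 calls by limma, edgeR and DESeq2 and 2 at an unadjusted p below 0.05. The 13 endothelial markers were all negative (median −0.25), and of 13 adipocyte genes 12 were (median −0.32), with 0 calls by the 3 tools and 3 and 2 at an unadjusted p below 0.05. With all 18 libraries in the fit the muscle list was positive in 14 of 19 genes (median 0.12), the adipocyte list in 10 of 13 (0.30) and the endothelial list in 5 of 13 (−0.03), while the mitochondrial list stayed at 0 positive (−0.11). The part of these tissue lists in the called genes was not tested.

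**Figure D5:**
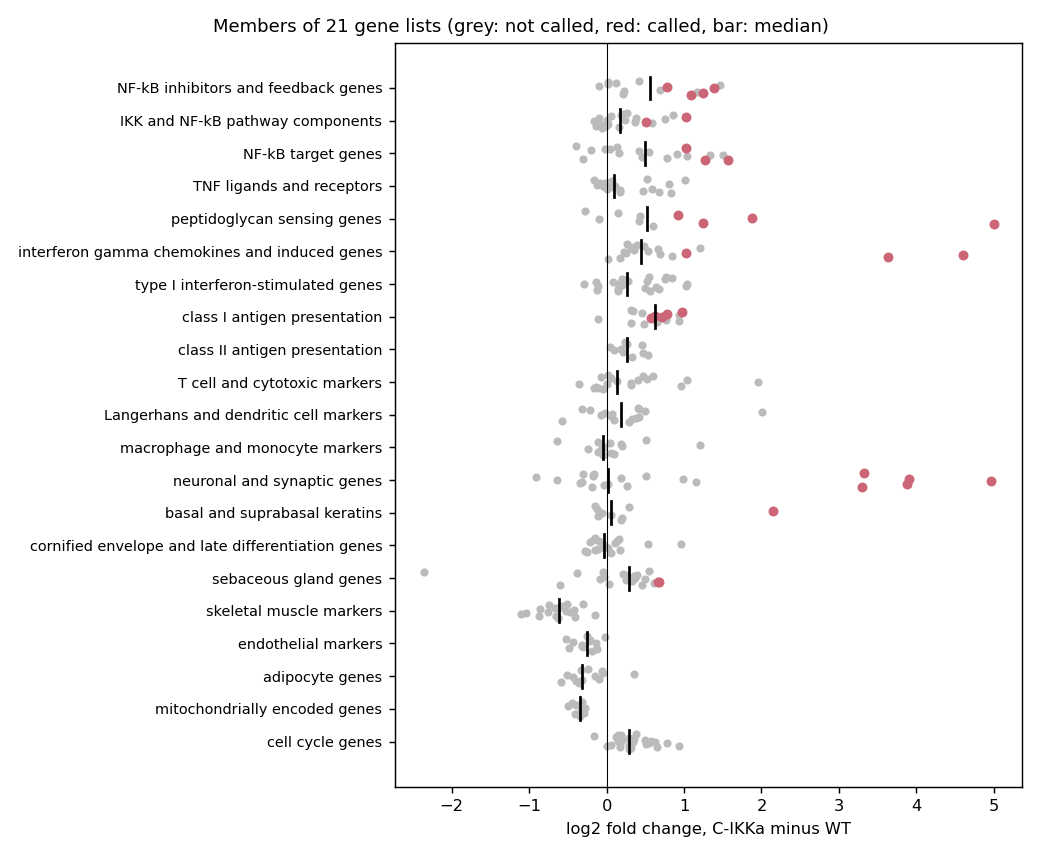
Log2 fold change of C-IKKa against WT (x axis) of every tested member of 21 lists (y axis), with called members in red, others in grey and the list median as a black bar. Peptidoglycan, interferon gamma and neuronal lists each have called members past 3 while their medians stay between 0.02 and 0.52, and the muscle and mitochondrial lists lie below 0.

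The libraries with high hair keratins were not used in the tests and give the same genes in skin rich in hair keratin RNA, with 1 C-IKKa library (C14) and 2 WT libraries (WT1 and WT4) and so with no test. The hair keratin means of these libraries were not matched, at 12.35 in C14, 12.89 in WT1 and 14.1 in WT4. The part of that difference in the values below was not tested. C14 lay above both WT libraries for 104 of the 138 genes called higher, where 33.0% of all tested genes did so. It lay below both for 2 of the 8 called lower, where the share was 34.1%. Pglyrp2 stood at 9.07 in WT1, 6.85 in WT4 and 237 in C14, Spib at 11.1, 7.99 and 136, and Cxcl9 at 20.2, 30.8 and 499. Each of the 3 was thus many times higher in C14 than in either WT library. Cyp27b1 was closer, at 45.4, 76.5 and 126. Klhdc1 and Cd59a, called lower in low-keratin skin, stood higher in C14, at 448 against 304 and 291 and at 359 against 310 and 301.

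In the low-keratin libraries of N-IKKa mice, which carry the kinase in keratinocyte nuclei, Pglyrp2 stood at 29.5, 31.7 and 17.4 in N7, N10 and N12. Spib stood at 12, 27.3 and 32.8 there. These values were far below those of C13, C16, C17 and C18. They were not all at the WT level, as Spib in N7, N10 and N12 lay above the highest WT value of 10.1. Pglyrp2 lay above the highest WT value of 17.5 in N7 and N10 but not in N12. All are given without a test.

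Il6 and Lcn2, which encode a cytokine and an antibacterial protein of inflamed skin, did not pass the filter. Il6 stood at 7.06, 8.34, 8.18 and 4.81 in WT and at 3.09, 5.51, 3.58, 3.7 and 6.65 in C-IKKa, with overlapping groups (exact two-sided permutation p = 0.0556, adjusted over 3 genes 0.167). Lcn2 stood at 10.1, 3.57, 5.84 and 2.41 in WT and at 1.03, 6.43, 11.6, 12 and 3.8 in C-IKKa (exact two-sided permutation p = 0.825). Where a gene is listed at 0, counting error alone leaves room for as many as 3 reads, equal to 3.02 to 3.61 normalized counts in WT and 2.69 to 3.09 in C-IKKa.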

How the data were processed

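RNA from the back skin of 18 mice was sequenced, 1 library a mouse. Per the labels' protocols, TRIzol and RNeasy MinElute columns were used for the RNA, which was made into stranded mRNA libraries and sequenced as 150-base paired ends on a NovaSeq instrument. The submitters' processing notes name featureCounts and the build GRCm39. Versions, aligner, annotation, strand setting and scaling tool are not given in the sources used here. For each gene and library the deposited table holds 1 normalized count (signal). Since 100% of non-zero values in every library were multiples of a fixed step, to within 0.001 reads, the authors' table was taken to hold gene counts scaled by a size factor of each library.

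Normalized counts were tested as log2(value + 1) with limma 3.58.1 in R 4.3.3 (trended empirical Bayes), 5 C-IKKa against 4 WT libraries, on genes with at least 10 normalized counts in at least 4 of the 9. Tests were two-sided, p-values were adjusted by the Benjamini-Hochberg method over all 17241 tested genes, and fold changes are differences of mean log2(value + 1), which understate changes of low genes. Genes below the filter had exact permutation tests over 126 splits. P-values measure the spread between these mice. On simulated data, 48% of 1.5-fold, 94% of 2-fold and 100% of 4-fold changes were recovered and 5% of calls were false, with 17005 genes tested. How far these rates apply to the calls in the measured libraries was not tested. Changes were simulated only in genes of higher mean level, so the recovery rates do not cover low genes such as Ccl1, Gabrg3, Cdkn2a and Olfm4. No pair of the 9 libraries was a copy (smallest chi-square per gene 5.61).

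The libraries, gene lists and single genes were chosen with earlier results of these data known. Named in each direction were the called genes of largest change, up to 12, that were at least 2-fold apart, with a mean of at least 50 and no overlap, without numbered models; for the lower direction, which had too few, the 8 called genes with the smallest p; then the single genes; and of each list up to 4 called members or else the 2 with the smallest p. Others were chosen after their values were seen. Libraries with Ddx3y above 500 normalized counts were read as male. The processing was varied with pseudocounts of 0.5 and 5, a filter of 50 or none, TMM and median-of-ratios scaling, edgeR 4.0.16 and DESeq2 1.42.0 on recovered reads, 12 or 18 libraries in the fit, covariates for sex and for the hair keratin mean, with males alone, array weights, a 2-fold limit and each library left out. Thinned reads and list counts under alternatives were added after the data were seen. Promoters came from RefSeq on GRCm38.p6 (another motif that was searched is not reported here), and exon overlap and neighbours from an annotation of the same earlier build, matched by identifier for 145 of 146 called genes.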

Additional observations from a re-analysis of the deposited data

Results flagged for a closer look

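Within the 4 WT or the 5 C-IKKa libraries, 1 library stood away from the others by Dixon's criterion in 13 of 216 groups of named genes, where chance gives about 1 in 20.

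Of genes called in the comparison, Pglyrp2 was lower in WT6, at 7.22 normalized counts, than in the other WT libraries, at 16.1 to 17.5. Pglyrp3 was lower in WT5 (108) than in the others (120 to 121), as was Traf3 in WT5 (797 against 924 to 949) and Wnt10b in WT3 (169 against 253 to 265). Olfm4 was listed at 1.17 in WT5 and at 0 in the other 3 WT libraries.

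C18, the C-IKKa library with the highest hair keratin mean, stood apart in 2 genes of hair and pigment. Padi3, an enzyme that modifies hair proteins, was at 152 there against 3.7 to 32.2 in the other C-IKKa libraries, and Tyr, the enzyme that starts melanin synthesis, at 193 against 10.2 to 33. In WT, Padi3 was at 54.1 in WT6, the WT library with the highest hair keratin mean, against 0 to 8.18, and Tyr at 60.5 in WT2 against 8.34 to 13.2.

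C15 stood apart in the death receptor gene Fas, at 460 against 635 to 682, and in the neutrophil chemokine receptor gene Cxcr2, at 81.7 against 7.4 to 10.5. The globin genes Hbb-bs and Hbb-bt were higher in WT5 (526 and 21) than in the other WT libraries (135 to 189 and 6.05 to 8.42).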

How the results depend on the processing

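Against 138 genes higher and 8 lower, the counts stayed within 1.5 times for pseudocounts of 0.5 and 5, TMM and median-of-ratios scaling, edgeR, a sex covariate and thinned reads. They moved further with no filter (5 lower), a filter of 50 (76 higher, 3 lower), DESeq2 (332, 99), all 12 low-keratin libraries (15 lower), all 18 libraries (67, 0), males alone (42, 1), the hair keratin covariate (44, 0), array weights (261, 27) and a 2-fold limit (11, 0). Leaving out 1 library gave 38 to 348 higher and 0 to 97 lower. The causes were not tested, beyond fewer libraries or genes where the setting removes them. With all 9 libraries, 982 genes were lower at an unadjusted limma p below 0.05, and edgeR called 11 lower. Directions of uncalled genes reversed with all 18 libraries for Padi3 (−0.329), Cxcr2 (−0.263), S100a8 (−0.331), Tgm3 (−0.533), Mitf (−0.016), Tyr (−0.346), Cdh19 (0.048) and Btc (0.135). As single libraries were left out, Hbb-bs ran from −0.039 to 0.712 and Lcn2 from −0.105 to 0.578 (−0.082 without C16, −0.092 without C17). No named called gene changed direction under the alternatives run. Scaling moved the median log2 fold change of all genes to at most 0.01. No paired analysis was possible because the replicate numbers are not shared between the groups.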
